A study of Mus musculus with 16 samples.

Results

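Castrated (CX) C57.YA mice were 4 of the 16 male mice whose hearts were profiled, and their left ventricles were set here against those of the other 12. The group was taken from the strain and surgery labels of the samples. The 4 groups were CX C57.YA, sham-operated C57.YA, CX C57BL/6J and sham-operated C57BL/6J, with 4 mice each and 1 array per mouse. C57.YA is a consomic strain, a C57BL/6J mouse whose chromosome Y was replaced by that of the A/J strain, and it stands for a single line. All 16 mice were 12 weeks old and had been operated on before puberty, so CX C57.YA differed from sham C57.YA by castration, from CX C57BL/6J by chromosome Y and from sham C57BL/6J by both. Castration removes every hormone of the testis, not testosterone alone, and the RNA came from whole ventricle, in which fewer cells of a type and less RNA per cell cannot be told apart.

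The testis is the main source of circulating androgen in male mice, and androgen acts on heart muscle through the androgen receptor, a transcription factor of the nuclear receptor family. Genes of the fetal program, such as atrial natriuretic factor (Nppa) and skeletal muscle actin (Acta1), are low in the adult ventricle and are known to rise when cardiomyocytes grow. The Z-disc, to which actin filaments are anchored, carries PDZ-LIM proteins that bind alpha-actinin. Serum response factor (Srf) drives many actin and Z-disc genes through a DNA element called the CArG box.

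Values were log2 signals after quantile normalization over the 16 arrays, so that a difference of 1 was a doubling. A probe was tested when its detection p, which compares it with the negative control beads of its array, was at most 0.04 on at least 2 of the 4 arrays of any group, and this left 12764 of 25697 probes, or 8831 named genes. A probe counted as called when its Benjamini-Hochberg adjusted p in limma was under 0.1. Between 11435 and 12212 probes were detected per array, and the 4 CX C57.YA arrays correlated with each other at 0.996 (Pearson's r over the tested probes, 0.9956 to 0.9964). The defining markers of cardiomyocytes were high in every group. Their summed signal ran from 259500 to 282400 in CX C57.YA and from 256200 to 281600 in the other groups, and none of the 7 tested was called against the average.

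The other 12 arrays were not a uniform background. In a principal component analysis the CX C57.YA arrays lay together, at 9.175 to 13.13 on the first component (28.3% of the variance) and at 8.533 to 12.62 on the second (23.3%). Sham C57.YA replicates 3 and 4 lay beside them on the first component, at 15.05 and 16.37, whereas replicates 1 and 2 of the same group lay at -3.30 and -4.28, near the C57BL/6J arrays. For 66.1% of all tested probes, replicates 3 and 4 were on the CX C57.YA side of replicates 1 and 2. This share was 80.2% among probes called against the average and 60.6% among those not called. Whether this division is one of BeadChip or of mouse was not tested, since the array positions are not given in the sources used here. Atrial muscle genes (Myl4, Myl7, Sln and others) had a summed signal of 1925 to 2256 in CX C57.YA, against 5066 to 15380 in CX C57BL/6J and 1856 to 2157 in the sham groups, and were thus high in CX C57BL/6J alone. Main counts are therefore also given without each pair of sham C57.YA arrays.

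**Figure D1:**
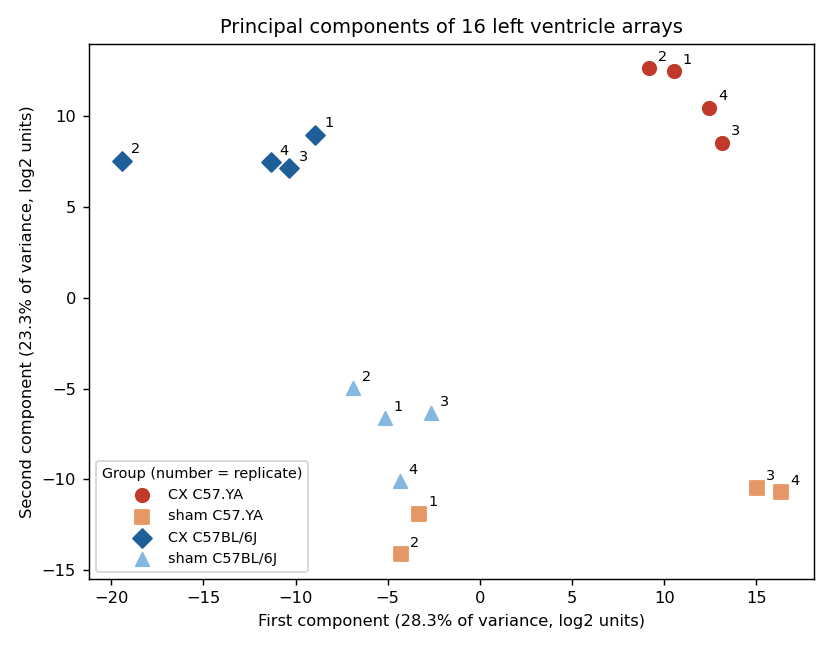
Each point is 1 of the 16 arrays on the first (28.3% of variance) and second (23.3%) principal components of the 12764 tested probes, in log2 units, with the replicate number beside it. The 4 CX C57.YA arrays lie together at the upper right, and sham C57.YA replicates 3 and 4 lie below them, apart from replicates 1 and 2.

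Against the average of the other 3 group means, 3589 of the 12764 tested probes (28.1%) were called, 1764 higher (13.8%) and 1825 lower (14.3%) in CX C57.YA. The pairwise contrasts called 2510 probes against sham C57.YA (19.7%), 2992 against CX C57BL/6J (23.4%) and 3296 against sham C57BL/6J (25.8%). The stricter count, of probes called against each of the other 3 groups with the same sign, was 650 (5.09%), with 297 higher (2.33%) and 353 lower (2.77%). On 482 probes (3.78%) all 4 CX C57.YA arrays lay outside the range of the other 12, above it on 204 (1.6%) and below it on 278 (2.18%). Both conditions were met by 354 probes (2.77%), 147 higher from 124 genes and 207 lower from 181 genes, with 18 of the probes unnamed. Counted by gene, with the brightest probe of each, 2441 of 8831 were called against the average (27.6%), 453 against each group (5.13%) and 347 lay outside the range (3.93%).

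By the same rules, sham C57.YA was apart from each of its 3 counterparts on 236 probes (1.85%), CX C57BL/6J on 280 (2.19%) and sham C57BL/6J on 54 (0.423%). Their arrays fell outside the range of the other 12 on 315 (2.47%), 311 (2.44%) and 106 probes (0.83%). Against the average of their counterparts 2073 (16.2%), 2905 (22.8%) and 991 probes (7.76%) were called. CX C57.YA thus had the largest counts of the 4 groups by both rules, with no test of the difference between the counts. The groups were compared in this setting alone, and the count of CX C57.YA against each group was smaller in some others, as given below. Arrays correlated within CX C57.YA at 0.9956 to 0.9964. The lowest such r was 0.9911 in sham C57.YA, 0.9918 in CX C57BL/6J and 0.9943 in sham C57BL/6J. The part of this spread in the counts was not tested. The other 3 groups also differed among themselves, on 2998 probes (23.5%) by an F-test. Of the 354 probes, 74 (20.9%) differed among the other 3 groups.

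**Figure D2:**
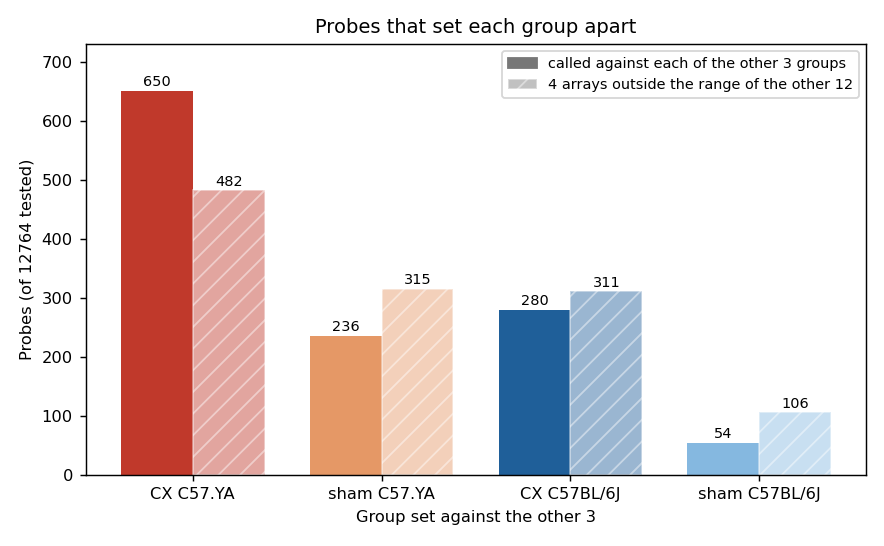
Bars give, for each group set against the other 3, the number of the 12764 tested probes called against each of them (solid) and the number on which its 4 arrays lay outside the range of the other 12 (hatched). CX C57.YA has 650 and 482, against 236 and 315 for sham C57.YA, 280 and 311 for CX C57BL/6J and 54 and 106 for sham C57BL/6J.

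The counts moved with the sham C57.YA arrays used, the scaling and an atrial covariate. Without sham C57.YA replicates 1 and 2 the count against each group was 264, and 187 probes met both conditions, of which 173 were among the 354. Without replicates 3 and 4 the counts were 1358 and 973, and 345 of the 354 were among them. On 321 of the 354 probes (90.7%) sham C57.YA replicates 3 and 4 lay to the CX C57.YA side of replicates 1 and 2. This share is a description, since the rule that chose the 354 used these arrays. With median scaling in place of quantile normalization they were 302 (186 higher, 116 lower) and 129 (81 higher, 48 lower), with 90 of the 354 among them, so that the share of higher probes in the count against each group was 61.6%, against 45.7% with quantile normalization. All 354 probes had the same direction with median scaling, and 347 were still called against the average. With the mean signal of 4 atrial genes as a covariate no probe was called against CX C57BL/6J, the group with high levels of those genes, and the median standard error of that contrast was 0.225, against 0.0867 without the covariate. In that fit 1672 probes were called against both sham groups in the same direction.

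Most of the differences were small. Among probes that met both conditions the median difference from the average was 0.39 for the higher and -0.35 for the lower ones, or 1.31-fold and 1.28-fold, and 15 higher and 18 lower probes passed 1.5-fold. The gap between the CX C57.YA arrays and the nearest of the other 12 had a median of 0.07 and 0.06 log2 units. The nearest group, by mean, was CX C57BL/6J for 63 higher and 95 lower probes, sham C57.YA for 54 and 87, and sham C57BL/6J for 30 and 25. At the threshold of the count against each group, Mpp5 was just inside, with a largest adjusted p of 0.0997 and a difference from the average of 0.34, and Dctn2 just outside, at 0.1001 and 0.18.

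**Figure D3:**
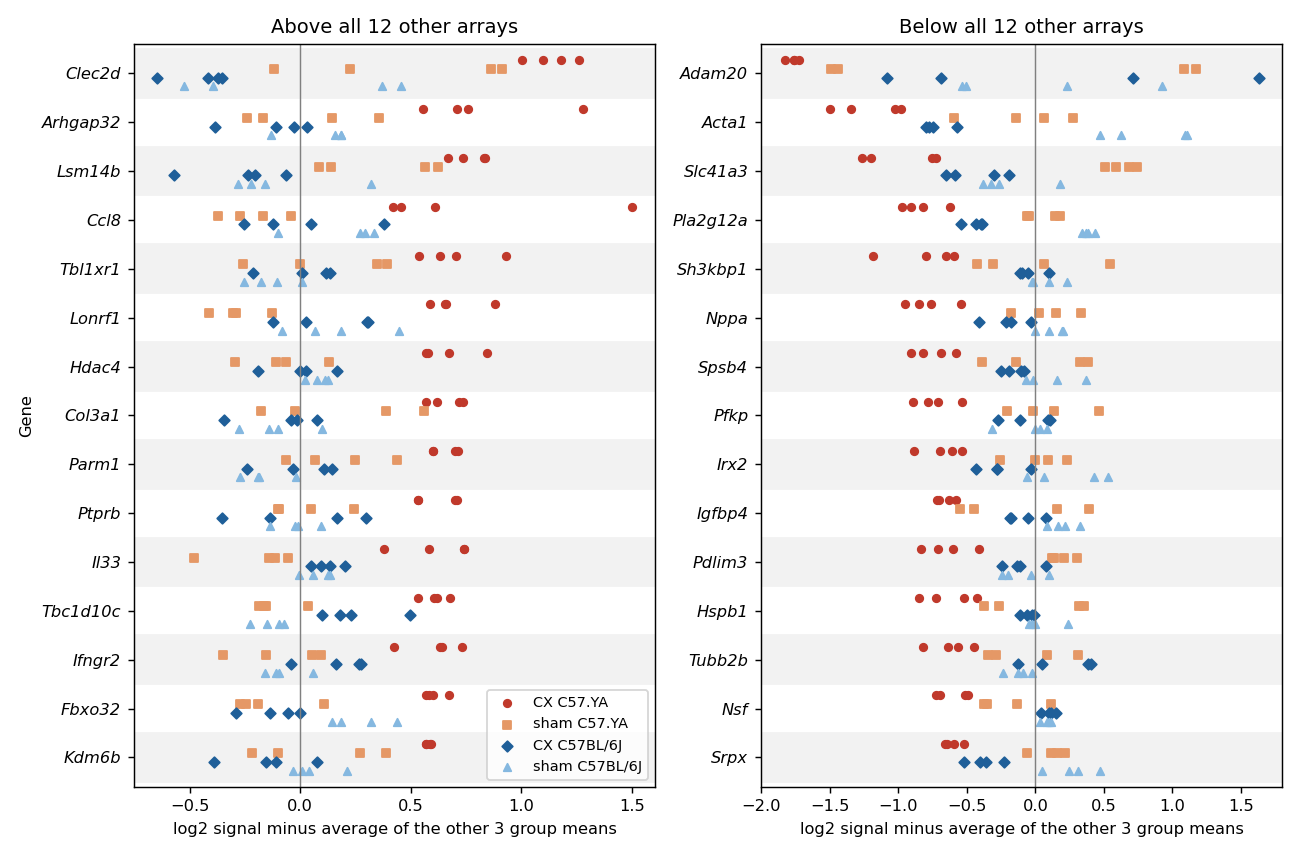
The 15 genes with the largest positive (left) and negative (right) difference among those that met both conditions, each array drawn as its log2 signal minus the average of the other 3 group means. The 4 CX C57.YA arrays of every gene lie beyond all other 12, by 0.40 log2 units for Hdac4 and by 0.01 or less for Col3a1 and Srpx.

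Genes of the fetal and hypertrophy program moved both ways, with the natriuretic and actin genes lower. Of 11 tested, 2 were higher and 6 lower against the average, where 13.1% and 14.5% of all genes were called higher and lower, and 2 higher and 3 lower were called against each group, where 2.25% and 2.88% of all genes were. The median difference of the list was -0.39, against -0.003 over all genes. Nppa, which encodes the precursor of atrial natriuretic peptide, had log2 signals of 13.41, 13.51, 13.60 and 13.82 in CX C57.YA, against 14.19, 14.39, 14.69 and 14.52 in sham C57.YA, 14.19, 13.95, 14.33 and 14.15 in CX C57BL/6J and 14.36, 14.57, 14.46 and 14.56 in sham C57BL/6J. All 4 CX C57.YA values lay below the lowest of the other 12. The difference from the average was -0.78 ± 0.09 (SE, adjusted p = 3.55e-05), and it was close in size against sham C57.YA (-0.86) and sham C57BL/6J (-0.90) and smaller against CX C57BL/6J (-0.57, adjusted p = 0.00238), the group with atrial muscle genes. With the atrial covariate Nppa, like every other probe, was not called against CX C57BL/6J.

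Acta1, the actin of fetal heart and adult skeletal muscle, had log2 signals of 11.99, 11.83, 12.35 and 12.31 in CX C57.YA, against 13.61, 13.19, 13.39 and 12.74 in sham C57.YA, 12.59, 12.56, 12.54 and 12.76 in CX C57BL/6J and 13.96, 14.42, 14.44 and 13.81 in sham C57BL/6J. It was 2.32-fold lower than the average, -1.21 ± 0.14 (SE, adjusted p = 3.55e-05), with CX C57BL/6J the nearest group (-0.49, adjusted p = 0.0518). Sham C57BL/6J was the farthest, at -2.04. The call of Acta1 against each group was lost without CX C57.YA replicate 1 or 2 or CX C57BL/6J replicate 4, where the largest adjusted p was 0.148. Tnfrsf12a, the receptor of the cytokine TWEAK, was lower at -0.84 ± 0.13 (SE, adjusted p = 0.000362), but its arrays overlapped those of CX C57BL/6J. Its call was lost without CX C57.YA replicate 1 or 2 or CX C57BL/6J replicate 2, 3 or 4, with an adjusted p of up to 0.249. Nppb, which encodes brain natriuretic peptide, was -0.82 against the average and was not called against CX C57BL/6J (-0.33, adjusted p = 0.232).

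Opposite to these, Myh7, the slow beta-myosin heavy chain, had log2 signals of 9.38, 9.66, 9.39 and 9.62 in CX C57.YA, against 8.33, 8.31, 9.39 and 9.55 in sham C57.YA, 8.19, 8.11, 7.97 and 7.82 in CX C57BL/6J and 8.22, 8.31, 8.45 and 8.28 in sham C57BL/6J. It was higher at 1.10 ± 0.17 (SE, adjusted p = 0.000347), with sham C57.YA replicates 3 and 4 inside the CX C57.YA range and replicates 1 and 2 at the level of the C57BL/6J groups. Its call against each group was lost without CX C57.YA replicate 2 or 4 or sham C57.YA replicate 1 or 2 (adjusted p of up to 0.194), and without both of these sham C57.YA arrays the adjusted p was 0.878. Ccn2, a matricellular growth factor, was higher at 0.50 ± 0.13 (SE, adjusted p = 0.0119). It too lost the call without CX C57.YA replicate 1 or 4 or sham C57.YA replicate 1 or 2, at up to 0.237.

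Srf and 4 of 7 genes of PDZ-LIM proteins, Pdlim1, Pdlim3, Pdlim5 and Ldb3, had probes called lower in CX C57.YA. These were chosen after their values were seen, except Ldb3, which stood in the list of sarcomere and Z-disc genes. Of 17 tested genes of that list, 0 were higher and 2 lower against the average, where 13.1% and 14.5% of all genes were. The 2 were Ldb3 and alpha-actinin (Actn2, -0.18), and the median was -0.004. The share called against each group was 5.88%, near the 5.13% of all genes. The main probe of Srf gave 11.34, 11.30, 11.42 and 11.27 in CX C57.YA, against 11.90, 11.88, 11.69 and 11.53 in sham C57.YA, 11.65, 11.82, 11.88 and 11.95 in CX C57BL/6J and 11.87, 11.68, 11.92 and 11.96 in sham C57BL/6J. All 4 CX C57.YA arrays were below the other 12, at -0.48 ± 0.07 (SE, adjusted p = 0.000313) from the average. A second Srf probe near background was not called (0.05). Srf and its listed partners, a family chosen after the values were seen, had 14 tested probes. Of these 7 were called lower against the average and 0 higher, where 14.3% of all probes were lower. Against each group 4 were called lower, where 2.77% of all probes were. No probe of Fhl2 (0.04), Myocd (0.06 to 0.14) or Actc1 (-0.08 and 0.01) was called.

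Pdlim3, a PDZ-LIM protein of muscle, gave 7.84, 7.97, 8.08 and 8.27 in CX C57.YA, against 8.89, 8.98, 8.82 and 8.80 in sham C57.YA, 8.44, 8.54, 8.76 and 8.57 in CX C57BL/6J and 8.65, 8.48, 8.43 and 8.78 in sham C57BL/6J, a difference of -0.64 ± 0.08 (SE, adjusted p = 5.67e-05), and its brighter second probe gave -0.52 ± 0.07. Ldb3, known as ZASP or cypher, gave 10.88, 10.88, 10.89 and 10.90 in CX C57.YA, against 11.38, 11.64, 11.06 and 11.29 in sham C57.YA, 11.19, 11.44, 11.36 and 11.31 in CX C57BL/6J and 11.45, 11.37, 11.44 and 11.47 in sham C57BL/6J. Its 4 CX C57.YA arrays (SD 0.01) lay below all others, at -0.48 ± 0.07 (SE, adjusted p = 0.000366), while a dim second probe was not called (-0.06). Pdlim1 was lower at -0.33 ± 0.05 and 3 of the 4 Pdlim5 probes at -0.43 to -0.60, whereas no probe of Pdlim2, Pdlim4 or Pdlim7 was called (-0.17 to 0.09). Summed smooth muscle markers, some of which are also targets of Srf, ran from 16550 to 25480 in CX C57.YA and from 18580 to 32170 in the other groups, and their part in this was not tested. Of the 14 tested probes of the 7 PDZ-LIM genes, 7 were called lower against the average and 0 higher, where 14.3% of all probes were lower, and 6 were called lower against each group, where 2.77% of all probes were. The family was picked for these values, so the counts are a description. Among abundant sarcomere genes, Actc1 (0.01) and the brighter probe of Myh6 (0.01) were not called, whereas the dimmer Myh6 probe met both conditions, higher at 0.29.

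The promoters of the low genes Acta1, Srf and Ldb3 each held a CArG box, and they are shown for that. The 200 bases before the start annotated by RefSeq (GRCm38.p6) are given 5′ to 3′ on the gene's strand, with each CArG box in capitals. They lie at chr8:123894776-123894975 (Acta1, minus strand), chr17:46556163-46556362 (Srf, minus strand) and chr14:34588682-34588881 (Ldb3, minus strand, before the outer of its 2 annotated starts).
Acta1: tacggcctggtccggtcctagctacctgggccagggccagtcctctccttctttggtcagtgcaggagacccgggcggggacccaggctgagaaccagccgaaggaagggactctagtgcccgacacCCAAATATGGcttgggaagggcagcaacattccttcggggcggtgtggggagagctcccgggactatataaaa
Srf: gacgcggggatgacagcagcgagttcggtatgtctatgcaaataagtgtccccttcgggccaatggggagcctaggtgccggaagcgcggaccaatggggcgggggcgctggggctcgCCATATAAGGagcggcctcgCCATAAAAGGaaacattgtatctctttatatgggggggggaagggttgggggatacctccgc
Ldb3: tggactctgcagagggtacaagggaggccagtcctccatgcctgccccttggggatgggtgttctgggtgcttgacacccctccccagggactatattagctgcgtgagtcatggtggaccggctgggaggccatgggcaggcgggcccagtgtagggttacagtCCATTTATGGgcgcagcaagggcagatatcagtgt
The box began 73 bases before the start of Acta1, 82 and 62 bases before that of Srf and 35 bases before that of Ldb3. Searched on both strands from 250 bases before to 50 after each start, the CArG box was in 535 of all 32851 promoters (1.63%) and in 132 of the 9336 promoters of tested genes (1.41%). It was in 6 of 204 promoters of the lower genes that met both conditions (2.94%), those of Acta1, Srf, Ldb3 (2 overlapping windows), Anxa5 and Ppm1b, and in 2 of 121 of the higher genes (1.65%). No CArG box was found in this window of Nppa, Pdlim1, Pdlim3 or Pdlim5. A match describes the sequence and is not evidence of binding.

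Immune genes formed another group, with many calls against the average but few against each group. All 7 tested genes of MHC class II and its loading were higher against the average (median 0.44) and 13 of 17 interferon-stimulated genes were higher (median 0.26), where 13.1% of all genes were. Against each group 0 and 1 of them were called higher, where 2.25% of all genes were. Cd74, the class II invariant chain, showed the pattern, at 0.89 against sham C57.YA, 0.71 against sham C57BL/6J and 0.20 against CX C57BL/6J (adjusted p = 0.275). Cxcl9, a chemokine induced by interferon gamma, stood, in the same order of groups, at 1.08, 0.67 and 0.14. The exception in this list of interferon-stimulated genes was Usp18, a protease that removes ISG15 from proteins. Of its 3 probes 2 met both conditions, and the brightest gave 0.46 ± 0.08 (SE, adjusted p = 0.00086). Its difference from CX C57BL/6J was 0.25 (adjusted p = 0.0872), and that call was lost with median scaling (0.266) and without CX C57.YA replicate 2, 3 or 4, CX C57BL/6J replicate 1, 2 or 4 or sham C57BL/6J replicate 2 (up to 0.239). Outside the list, the interferon-induced gene Ifitm1 also met both conditions (adjusted p = 0.00687 against CX C57BL/6J).

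Among genes of the interferon gamma receptor and its signalling, Ifngr2 and Jak1 were higher in CX C57.YA than in each group, and Ifngr1, Jak2 and Irf1 were not called against the average. Ifngr2, the second chain of the interferon gamma receptor, gave 10.43, 10.64, 10.63 and 10.73 in CX C57.YA, against 9.85, 9.65, 10.05 and 10.10 in sham C57.YA, 10.16, 10.27, 10.27 and 9.96 in CX C57BL/6J and 9.90, 9.89, 10.06 and 9.84 in sham C57BL/6J, so that the lowest CX C57.YA array was 0.15 above the highest other one. The difference was 0.61 ± 0.08 (SE, adjusted p = 9.41e-05), and all 3 probes of the gene met both conditions, at 0.48 to 0.61. Among other members of the receptor and its pathway, chosen after the values were seen, the kinase Jak1 was called against each group at 0.64 ± 0.09, whereas Ifngr1 (0.11) and the 2 Jak2 probes (0.08 and 0.12) were not called against the average. None of the 4 Irf1 probes was called (0.03 to 0.15).

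Il33, an alarmin stored in the nuclei of endothelial and stromal cells, had log2 signals of 8.76, 8.92, 8.91 and 8.55 in CX C57.YA, against 7.70, 8.06, 8.03 and 8.12 in sham C57.YA, 8.38, 8.27, 8.22 and 8.31 in CX C57BL/6J and 8.17, 8.30, 8.31 and 8.23 in sham C57BL/6J. All 4 CX C57.YA arrays were above the rest and sham C57.YA was the lowest group, with a difference from the average of 0.61 ± 0.08 (SE, adjusted p = 5.67e-05). Ccl8, a chemokine of macrophages, gave 7.58, 7.39, 8.47 and 7.42 in CX C57.YA, against 6.60, 6.80, 6.93 and 6.70 in sham C57.YA, 7.02, 6.72, 6.85 and 7.35 in CX C57BL/6J and 7.26, 7.24, 6.87 and 7.30 in sham C57BL/6J. Replicate 3 of CX C57.YA stood well above the other 3 of its group. The difference was 0.75 ± 0.15 (SE, adjusted p = 0.00231), the probe was detected on 4 CX C57.YA arrays against 1, 2 and 3 of the other groups in the order above, and the call was lost without CX C57.YA replicate 3 or sham C57BL/6J replicate 3 (up to 0.143). Other macrophage genes were called higher against the average in 2 of 12 cases, Lyz2 (0.29) and Cx3cr1 (0.24), and against each group in none. Of all genes, 13.1% were called higher against the average and 2.25% against each group. Summed macrophage markers ran from 7807 to 10300 in CX C57.YA and from 6053 to 8802 in the other groups, and their part in the result was not tested.

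Clec2d, a C-type lectin that binds an inhibitory receptor of natural killer cells, had the largest difference of the higher genes that met both conditions. Its log2 signals were 11.51, 11.26, 11.43 and 11.35 in CX C57.YA, against 10.13, 10.48, 11.17 and 11.12 in sham C57.YA, 9.88, 9.84, 9.90 and 9.61 in CX C57BL/6J and 10.62, 9.73, 10.71 and 9.86 in sham C57BL/6J. The difference was 1.14 ± 0.17 (SE, adjusted p = 0.000349), but sham C57.YA replicate 3 came within 0.09 of the lowest CX C57.YA array, with replicate 4 next to it, and without sham C57.YA replicates 1 and 2 the call against each group was lost (adjusted p = 0.522). It was also lost without CX C57.YA replicate 1 or sham C57.YA replicate 1 or 2 alone, at up to 0.153. Its promoter held the core of the interferon-stimulated response element (GAAANNGAAA on either strand), shown in capitals in the 200 bases before its start at chr6:129180415-129180614 (GRCm38.p6, plus strand).
Clec2d: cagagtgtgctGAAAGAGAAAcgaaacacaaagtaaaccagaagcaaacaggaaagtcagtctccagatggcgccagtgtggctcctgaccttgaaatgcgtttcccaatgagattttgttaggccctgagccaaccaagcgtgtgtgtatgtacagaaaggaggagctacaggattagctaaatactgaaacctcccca
The core began 189 bases before the start. It was in 1131 of all 32851 promoters (3.44%) and 269 of 9336 promoters of tested genes (2.88%), in 7 of 121 promoters of the higher genes (5.79%) and in 5 of 204 of the lower genes (2.45%).

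Regulators of muscle mass and of chromatin were among the higher genes. Fbxo32, or atrogin-1, the ubiquitin ligase induced in muscle wasting, gave 10.85, 10.87, 10.84 and 10.95 in CX C57.YA, against 10.08, 10.00, 10.03 and 10.38 in sham C57.YA, 10.21, 9.98, 10.27 and 10.13 in CX C57BL/6J and 10.45, 10.71, 10.59 and 10.42 in sham C57BL/6J. The 4 CX C57.YA arrays had the small SD of 0.05 and lay above all others, and all 3 probes of the gene met both conditions at 0.58 to 0.61. The difference of the first was 0.61 ± 0.07 (SE, adjusted p = 5.67e-05), although with median scaling its largest pairwise adjusted p was 0.11. Of 15 tested FoxO and atrophy genes, 5 were higher and 2 lower against the average (13.1% and 14.5% of all genes), and apart from Fbxo32 only Ulk1, a kinase that starts autophagy, was called against each group (0.36 ± 0.08). Ulk1 lost that call without CX C57.YA replicate 2 or 4 or sham C57.YA replicate 1 or 2 (up to 0.182). Acvr2b, the receptor of myostatin and activin, was higher at 0.36 ± 0.06 (SE, adjusted p = 0.000668), outside the range of the other 12. Its list of growth factor and activin genes had 5 higher and 3 lower of 25 tested against the average. In each direction 1 was called against each group, where 2.25% and 2.88% of all genes were called higher and lower.

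Hdac4, a class IIa histone deacetylase that represses MEF2 factors in muscle, had the widest gap of the higher probes. Its log2 signals were 9.272, 8.995, 9.005 and 9.100 in CX C57.YA, against 8.317, 8.131, 8.557 and 8.364 in sham C57.YA, 8.426, 8.239, 8.454 and 8.595 in CX C57BL/6J and 8.540, 8.452, 8.502 and 8.553 in sham C57BL/6J. The lowest CX C57.YA array was 0.40 above the highest of the other 12, and the difference was 0.67 ± 0.07 (SE, adjusted p = 3.55e-05). Other class IIa deacetylases and MEF2 factors were chosen after the values were seen. No Hdac5 probe was called (0.02 to 0.11), and Hdac7 was called against the average only (0.17). Every tested Mef2a probe was also called higher against the average only (0.28 to 0.51), and no Mef2c or Mef2d probe was called. Tbl1xr1, a subunit of the NCoR corepressor complex, was higher at 0.70 ± 0.10. It was detected on all 4 CX C57.YA arrays and on 7 of the other 12. Kdm6b, a demethylase of histone H3, was higher at 0.58 ± 0.09 by the dimmer of its 2 probes. The brighter probe was not called against the average (-0.19). It stood at 0.13 from sham C57.YA, -0.42 from CX C57BL/6J and -0.28 from sham C57BL/6J. The call of Kdm6b was lost without sham C57.YA replicates 1 and 2 (adjusted p = 0.167).

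Several signalling genes were called by all of their probes. All 4 probes of Sh3kbp1, or CIN85, an adaptor in the endocytosis of receptor tyrosine kinases, met both conditions, at -0.54 to -0.81. The probe with the largest difference gave 8.01, 8.07, 7.48 and 7.86 in CX C57.YA, against 8.73, 9.21, 8.24 and 8.35 in sham C57.YA, 8.55, 8.76, 8.61 and 8.56 in CX C57BL/6J and 8.76, 8.65, 8.64 and 8.90 in sham C57BL/6J, with every CX C57.YA array below all others. All 3 probes of Ptpn11, which encodes the phosphatase SHP2, also met both, at -0.38 to -0.58, and the brightest gave 13.88, 13.76, 14.06 and 13.96 in CX C57.YA, against 14.48, 14.38, 14.35 and 14.32 in sham C57.YA, 14.12, 14.07, 14.10 and 14.27 in CX C57BL/6J and 14.32, 14.39, 14.48 and 14.32 in sham C57BL/6J. Ptpn11 was chosen after its values were seen, as 1 of 13 genes with several probes all of which met both conditions. Of the others, Fbxo32, Ifngr2, Parm1, Cdh13 and Psmd7 were higher, and Sh3kbp1, Alg3, Abcb9, Cox18, Mettl17, Preb and Shisa5 were lower.

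Of 138 genes with several tested probes and at least 1 that met both conditions, 116 had all probes on the same side of 0 and 67 had all called against the average in that direction. In 7 genes another probe was called the opposite way. Tubb2b, a beta-tubulin, rested on 1 of 5 probes (-0.62, with the others up to 0.04), and its call was lost without sham C57.YA replicates 1 and 2 (0.186). Col3a1, a fibrillar collagen, rested on the dimmer of 2 probes. This probe was not detected on any C57BL/6J array. With both C57BL/6J groups set at the lowest signal of any detected probe on each array, CX C57.YA was 1.36-fold higher than the average. Sham C57.YA, where 2 of 4 arrays detected it, kept its measured signals, so this is no strict bound. The brighter probe was not called (0.30). Without sham C57.YA replicates 1 and 2 the call of the dimmer Col3a1 probe was lost as well (0.366).

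Other higher genes included Arhgap32, a GTPase-activating protein, at 0.83 ± 0.12 (SE, adjusted p = 0.000204), and Lonrf1, a RING finger protein, at 0.70 ± 0.09 (SE, adjusted p = 9.39e-05). Parm1, a membrane mucin first described in the rat prostate as an mRNA that rises after castration, was higher at 0.65 ± 0.08 (SE, adjusted p = 5.97e-05). It was 0.48 above sham C57.YA and 0.66 above CX C57BL/6J, the castrated group with the other chromosome Y. Ptprb, the endothelial phosphatase VE-PTP, was higher at 0.62 ± 0.09 (SE, adjusted p = 0.000313). Of 8 endothelial markers 1 was called higher against the average and none lower, where 13.1% and 14.5% of all genes were. Tbc1d10c, or carabin, an inhibitor of calcineurin, was higher at 0.61 ± 0.07 (SE, adjusted p = 2.7e-05), and with median scaling its call was lost (0.128). Lsm14b, an RNA-binding protein, was higher at 0.77 ± 0.11. It lost its call without CX C57.YA replicate 1 or 2 or sham C57.YA replicate 1 or 2 (up to 0.169).

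Among the lower genes, transport and metabolism were represented by Slc41a3, a magnesium transporter of mitochondria. Its log2 signals were 9.21, 9.15, 9.66 and 9.68 in CX C57.YA, against 10.92, 11.15, 11.00 and 11.09 in sham C57.YA, 9.76, 10.21, 9.82 and 10.11 in CX C57BL/6J and 10.14, 10.03, 10.09 and 10.59 in sham C57BL/6J. CX C57.YA was the lowest group and sham C57.YA the highest, at -1.61 between them, and the difference from the average was -0.98 ± 0.11 (SE, adjusted p = 4.44e-05). Of its 3 probes, 2 met both conditions and the brightest did not, at -0.74. Cnnm2, another gene of magnesium transport, was lower at -0.30 ± 0.05, without a call when CX C57.YA replicate 1 was left out (0.102) or with median scaling (0.137). Of 5 tested magnesium transporter genes, by the brightest probe, 2 were lower and 0 higher against the average, where 14.5% of all genes were lower. Against each group 1 was called lower, where 2.88% of all genes were.

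Pla2g12a, a secreted phospholipase A2, gave 12.28, 12.20, 12.48 and 12.13 in CX C57.YA, against 13.28, 13.24, 13.05 and 13.04 in sham C57.YA, 12.56, 12.71, 12.67 and 12.71 in CX C57BL/6J and 13.54, 13.47, 13.44 and 13.48 in sham C57BL/6J. Both CX groups lay below both sham groups, and CX C57.YA lay lowest, at -0.39 from CX C57BL/6J (adjusted p = 0.00332) and -0.83 ± 0.06 (SE, adjusted p = 1.01e-06) from the average. Pfkp, the platelet form of phosphofructokinase, was lower at -0.73 ± 0.10 (SE, adjusted p = 0.00018). Of 27 oxidative phosphorylation genes tested, 1 was called against the average and 0 against each group, where 27.6% and 5.13% of all genes were. Fatty acid oxidation (2 higher, 6 lower of 24) and glucose metabolism (4 higher, 6 lower of 24) had 1 and 3 genes called against each group, and the shares called were 33.3% and 41.7% against the average and 4.17% and 12.5% against each group.

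These were Decr1 (-0.34), Ppp1r3c (-0.27), Pdk2 (-0.23) and the glucose transporter Slc2a4 (0.25), each of which lost its call with median scaling, at 0.119, 0.138, 0.533 and 0.368. Each also lost it when some single arrays were left out. Decr1 lost it without CX C57.YA replicate 3 or sham C57.YA replicate 1 or 2 (up to 0.145), and Ppp1r3c without CX C57.YA replicate 1, CX C57BL/6J replicate 1, 3 or 4 or sham C57BL/6J replicate 3 (up to 0.201). Slc2a4 lost it without CX C57.YA replicate 1, 2 or 4, sham C57.YA replicate 2 or sham C57BL/6J replicate 2 or 3 (up to 0.167), and Pdk2 without CX C57.YA replicate 3 or 4, sham C57.YA replicate 1 or 2, CX C57BL/6J replicate 1, 2 or 3 or sham C57BL/6J replicate 1, 2 or 3 (up to 0.24). Of 20 tested lipid synthesis genes, 2 were higher and 3 lower against the average, where 13.1% and 14.5% of all genes were. Against each group 2 were called higher, Mid1ip1 (0.54) and Dgat2 (0.25), and 1 lower, Lpin1 (-0.37). Of all genes, 2.25% and 2.88% were called so. With median scaling only Lpin1 was called against each group (adjusted p = 0.0412, against 0.265 and 0.803).

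Heat shock genes were lower where they moved. Of 21 tested, 6 were lower and 0 higher against the average, where 14.5% of all genes were lower, and 3 were called lower against each group, where 2.88% of all genes were. Hspb1, the small heat shock protein HSP27, gave 12.12, 12.00, 12.33 and 12.43 in CX C57.YA, against 13.17, 13.21, 12.59 and 12.48 in sham C57.YA, 12.79, 12.84, 12.74 and 12.82 in CX C57BL/6J and 12.83, 12.81, 12.85 and 13.09 in sham C57BL/6J. Sham C57.YA replicate 4 came within 0.05 of the highest CX C57.YA array, and the difference was -0.63 ± 0.11 (SE, adjusted p = 0.000937). Chordc1 and Ahsa1, both cochaperones of HSP90, were lower at -0.37 ± 0.06 and -0.32 ± 0.06. Chordc1 lost its call without CX C57.YA replicate 1, 3 or 4 or CX C57BL/6J replicate 3 or 4 (up to 0.154). The median of the list was -0.04.

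Of 5 tested genes for steroid hormone receptors, their coregulators and steroid metabolism, 2 were higher and 1 lower against the average (13.1% and 14.5% of all genes). In each direction 1 was called against each group, where 2.25% and 2.88% of all genes were called higher and lower. Nr3c1, the glucocorticoid receptor, gave 7.90, 7.85, 7.72 and 7.71 in CX C57.YA, against 7.16, 7.52, 7.40 and 7.51 in sham C57.YA, 7.58, 7.14, 7.56 and 7.45 in CX C57BL/6J and 7.45, 7.41, 7.43 and 7.38 in sham C57BL/6J. All 4 CX C57.YA arrays were above the other 12, at 0.38 ± 0.08 (SE, adjusted p = 0.00265), and the 3 pairwise differences were 0.39, 0.36 and 0.38. Ncoa4, known as a coactivator of the androgen receptor and as the receptor for ferritin degradation, was lower at -0.34 ± 0.06 (SE, adjusted p = 0.00123), with -0.34, -0.33 and -0.35 in the pairwise contrasts. The call of Ncoa4 was lost without sham C57.YA replicates 1 and 2 (0.129) and with median scaling (0.115). Of 14 tested glucocorticoid-induced genes 3 were higher and 4 lower against the average, where 13.1% and 14.5% of all genes were. Cdkn1a, the cell cycle inhibitor p21, was the single one called against each group, at -1.22 and by 1 of its 3 probes. It differed from sham C57.YA by -2.46, and against CX C57BL/6J it was -0.44 (adjusted p = 0.0984), where the other probes gave -0.26 and 0.10 and were not called. That call was lost without CX C57.YA replicate 1, 2 or 4, sham C57.YA replicate 2, CX C57BL/6J replicate 1, 2, 3 or 4 or sham C57BL/6J replicate 1, 3 or 4 (up to 0.247).

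Adam20, a metalloprotease known from testis, had the largest difference of the lower genes that met both conditions, with a wide spread in the other groups. Its log2 signals were 6.43, 6.47, 6.43 and 6.36 in CX C57.YA, against 9.36, 9.28, 6.70 and 6.75 in sham C57.YA, 7.11, 7.50, 8.90 and 9.82 in CX C57BL/6J and 7.66, 7.69, 9.11 and 8.42 in sham C57BL/6J. It was detected on none of the 4 CX C57.YA arrays, on 2 of the 4 sham C57.YA arrays and on all 8 C57BL/6J arrays. With CX C57.YA set at the lowest signal of any detected probe on each array, it was 2.38-fold lower than the average. The 2 undetected sham C57.YA arrays kept their measured signals, so this is no strict bound. The fitted difference of Adam20 was -1.77 (adjusted p = 0.0146). Its call was lost without CX C57.YA replicate 1, 2, 3 or 4, sham C57.YA replicate 1 or 2, CX C57BL/6J replicate 4 or sham C57BL/6J replicate 3 (up to 0.24), and without sham C57.YA replicates 1 and 2 together (0.791). Srpx, an extracellular sushi-repeat protein, was also undetected on all 4 CX C57.YA arrays. Set in the same way it was 1.31-fold lower than the average, again no strict bound. Its fitted difference was -0.60 (adjusted p = 5.42e-05). It was close to CX C57BL/6J (-0.23, adjusted p = 0.0847), where 1 of 4 arrays detected it, and lost its call without CX C57.YA replicate 1, 2 or 3 or CX C57BL/6J replicate 2, 3 or 4 (up to 0.204) and with median scaling (0.131).

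The remaining lower genes of the top 15 were regulators of different kinds. Irx2, an Iroquois transcription factor, was lower at -0.68 ± 0.10 (SE, adjusted p = 0.000352), and lost its call without CX C57BL/6J replicate 2 (0.104). Of the other Iroquois genes tested, chosen after their values were seen, Irx4, which marks ventricular muscle, was called against each group (-0.30 ± 0.06), Irx3 (-0.57) and Irx5 (-0.28) against the average only, and Irx1 was not called (0.14). Igfbp4, which binds insulin-like growth factors, was lower at -0.66 ± 0.12 (SE, adjusted p = 0.00121), with sham C57.YA replicates 3 and 4 nearest and no call without replicates 1 and 2 (0.323). Spsb4, an adaptor of ubiquitin ligases, and Nsf, an ATPase of membrane fusion, were lower at -0.75 ± 0.11 and -0.61 ± 0.07.

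**Figure D4:**
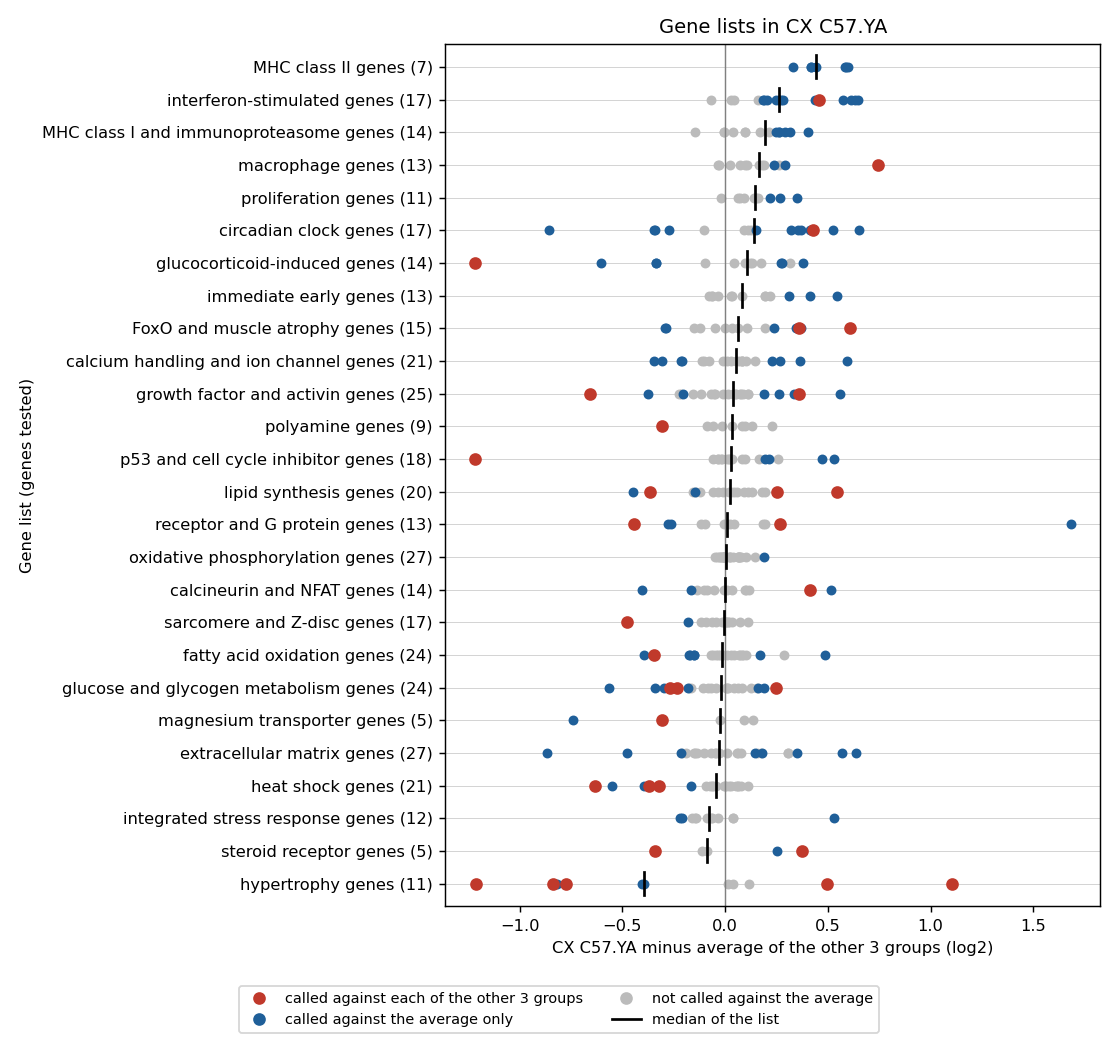
Each dot is a tested gene of a list, at its log2 difference in CX C57.YA from the average of the other 3 groups, and black bars are list medians, for the 26 lists with at least 5 genes tested. MHC class II genes lie at 0.33 to 0.60 with none called against each group, whereas the hypertrophy list spans -1.21 to 1.10 with 5 of 11 called against each.

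Over all 28 lists, 31 genes were called against each group. Over all genes, 27.6% were called against the average, 13.1% higher and 14.5% lower, and 5.13% against each group. In the circadian list 12 of 17 genes were called against the average (70.6%), but only Rora, a nuclear receptor of the clock, was called against each group (0.43 ± 0.07 (SE, adjusted p = 0.00086), lost with median scaling at 0.127). Arntl, or Bmal1, was -2.39 from sham C57.YA but -0.02 from CX C57BL/6J and -0.15 from sham C57BL/6J, so its difference was that of sham C57.YA from all others. Summed fibroblast markers ran from 37280 to 39480 in CX C57.YA and from 32160 to 37500 in the other groups, and 2 of 7 were called higher against the average. The extracellular matrix list had 5 higher and 3 lower of 27 (29.6%) and 0 against each. Markers of mesothelium were lower against the average in 4 of 4 tested genes, with sums of 739.1 to 786.6 in CX C57.YA and 755.2 to 1255 in the other groups. None of them was called against sham C57BL/6J, and only Wt1 was against CX C57BL/6J (-0.32, adjusted p = 0.0204). Upk3b and Upk1b differed most from sham C57.YA (-1.16 and -1.17). The means of Upk1b (6.59), Krt8 (6.97) and Upk3b (7.23) were near the lowest detected signal of the arrays (6.90 to 7.03). The calcium and ion channel list had 8 of 21 called against the average (38.1%) and 0 against each. Chrm2, the muscarinic M2 receptor, had the largest positive difference of any list member (1.68) but was not called against sham C57.YA (0.88, adjusted p = 0.132). Of the 3 genes of chromosome Y tested, Eif2s3y was called against the average (0.18) and 0 against each group.

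Weakly supported list members called against each group were Grk5 (-0.45), Gnaq (0.27), Ppp3ca (0.41) and Smox (-0.31), which encode a receptor kinase, a G protein, the catalytic subunit of calcineurin and spermine oxidase. The arrays of each overlapped with those of other groups. Grk5 lost its call without CX C57.YA replicate 1, 2 or 3, sham C57.YA replicate 2, CX C57BL/6J replicate 1, 3 or 4 or sham C57BL/6J replicate 1 or 4 (up to 0.284). Gnaq lost it without CX C57.YA replicate 1, 3 or 4, sham C57.YA replicate 1 or 2 or CX C57BL/6J replicate 2 (up to 0.194) and with median scaling (0.295). Ppp3ca lost it without CX C57.YA replicate 1, 3 or 4 or sham C57.YA replicate 1 or 2 (up to 0.205), and Smox without CX C57.YA replicate 2, sham C57.YA replicate 1 or 2 or CX C57BL/6J replicate 4 (up to 0.137) and with median scaling (0.263). Mid1ip1, an activator of fatty acid synthesis, lost it without CX C57.YA replicate 2 or sham C57BL/6J replicate 2 (up to 0.111). Dgat2, an enzyme of triglyceride synthesis, lost it without CX C57.YA replicate 1, 3 or 4 or CX C57BL/6J replicate 1, 2 or 4 (up to 0.194), and Lpin1, a phosphatidate phosphatase, without CX C57.YA replicate 4 or CX C57BL/6J replicate 4 (up to 0.131).

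Of the 30 genes with the largest differences, 23 were called against each group in all 16 fits with an array left out, 23 without sham C57.YA replicates 1 and 2, 30 without replicates 3 and 4, and 27 with median scaling. For all 55 named genes these numbers were 29, 37, 55 and 40. Besides those given above, the genes without a call when sham C57.YA replicates 1 and 2 were left out were Lsm14b, Ccn2, Ppp3ca, Grk5, Gnaq, Ulk1, Decr1, Slc2a4, Pdk2 and Smox, at adjusted p of 0.101 (Grk5) to 0.665 (Ccn2). With a background correction from the negative controls (neqc) 8 of the 55 were not called, at 0.104 (Gnaq) to 0.12 (Usp18), the others being Adam20, Tnfrsf12a, Ccn2, Grk5, Cdkn1a and Pdk2.

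Whether castration acted differently in the strains was tested with the interaction, CX minus sham in C57.YA less CX minus sham in C57BL/6J. It was called for 368 tested probes (2.88%), and for 84 of the 354 that met both conditions (23.7%). The rule that chose the 354 used all 4 means of this contrast, so the share and the interaction values of the genes below are descriptions and no independent test. In C57BL/6J, CX minus sham was called in the same direction for 38 of the 354 and in the opposite direction for 4, where it was called for 1124 of all tested probes (8.81%). Among sham mice, C57.YA minus C57BL/6J was called in the same direction for 6 and in the opposite direction for 11. It was called for 548 of all tested probes (4.29%). The rule used the means of these groups too, so these counts are likewise descriptions. Among the named genes the interaction was called for 24. For Fbxo32 castration gave 0.76 in C57.YA and -0.39 in C57BL/6J, an interaction of 1.15 (adjusted p = 5.06e-05). For Slc41a3 it gave -1.61 and -0.24, with an interaction of -1.38 (adjusted p = 0.000755). For Hdac4, Lonrf1 and Il33 the effects were 0.75, 0.98 and 0.81 in C57.YA and -0.08, -0.03 and 0.04 in C57BL/6J. For Acta1 the effects were -1.11 and -1.55, and the interaction was not called, at 0.43 (adjusted p = 0.403).

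**Figure D5:**
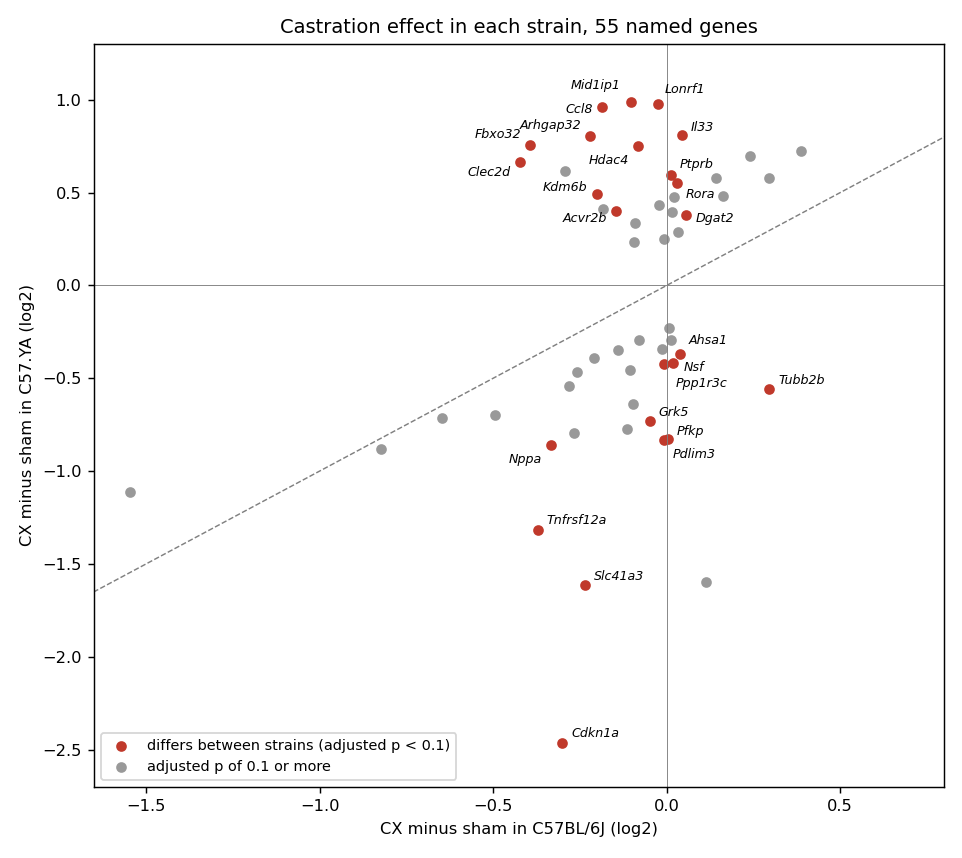
For the 55 named genes, CX minus sham in C57.YA (vertical, log2) is plotted against CX minus sham in C57BL/6J (horizontal, log2), and the dashed line marks equal effects. The 24 red genes have an adjusted interaction p under 0.1, and most lie near 0 in C57BL/6J, whereas the grey point farthest to the left is Acta1.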

How the data were processed

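Left ventricular RNA of 16 mice was measured on MouseRef-8 v2.0 BeadChips (Illumina), with 1 array for each mouse. The authors deposited the signal intensity of each probe as exported from BeadStudio, without normalization, together with its detection p-value, and a table of log2 values quantile-normalized with the affy package. The probe names of the deposited log2 table did not pair with those of the intensities (1 of 25697 lines), but paired by value the tables differed by at most 5.43e-06. The log2 table was fitted with this pairing, which left it no room to give other results. Bead errors and bead numbers (32 columns) were not used.

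Intensities were log2-transformed, quantile-normalized over the 16 arrays and fitted with limma 3.58.1 in R 4.3.3, with a mean per group and no covariate. Contrasts were two-sided, and their p-values were adjusted by Benjamini-Hochberg over 12764 probes. Gene symbols came from the platform annotation, updated by Entrez number (23962 probes), and 1719 probes had none. Named genes were the 15 highest and 15 lowest that met both conditions, each by its probe of largest difference, and all list members called against each group, by the brightest probe. Members and gene lists were chosen with earlier results of these data known. The number of arrays, 4 per group, limits the precision. The methods' own analysis used a permuted shrunken F-test, which was not run here. The alternatives are a background correction with negative controls (neqc, offset 16), the deposited log2 values, median scaling, other detection filters, thresholds, variances and array weights, a replicate block, an atrial gene covariate, and arrays left out singly or in pairs.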

Additional observations from a re-analysis of the deposited data

Results flagged for a closer look

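For each of the 55 named genes, the highest and lowest array of every group was compared with the rest of its group, which gave 220 gene and group pairs, and 10 of these held an array far from the other 3 by Dixon's criterion. Chance alone marks about 1 in 20 groups. In CX C57.YA these were Ccn2 in replicate 1 at 13.81, against 13.3 to 13.39 in the other 3, and Ppp1r3c in replicate 1 at 13.61, against 13.79 to 13.82. In sham C57.YA they were Tbc1d10c in replicate 4 at 10.27 (others 10.05 to 10.08) and Smox in replicate 4 at 8.843 (9.208 to 9.267). In CX C57BL/6J it was Ppp3ca in replicate 1 at 11.29 (11.03 to 11.07). In sham C57BL/6J they were Arhgap32 in replicate 3 at 7.886 (8.175 to 8.206), Ccl8 in replicate 3 at 6.868 (7.242 to 7.304), Ppp1r3c in replicate 3 at 14.02 (13.92 to 13.94), Hspb1 in replicate 4 at 13.09 (12.81 to 12.85) and Cdkn1a in replicate 2 at 8.561 (9.041 to 9.135).

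For 24 of the 55 named genes the effect of castration, CX minus sham, differed between C57.YA and C57BL/6J by the limma interaction (adjusted p under 0.1, Benjamini-Hochberg over all tested probes). The values that follow are the log2 difference between the strains, and in parentheses CX minus sham in C57.YA, the same in C57BL/6J and the adjusted p. The largest positive differences were those of Fbxo32 1.15 (0.76 and -0.39, 5.06e-05), Ccl8 1.15 (0.96 and -0.19, 0.0322), Mid1ip1 1.09 (0.99 and -0.10, 5.06e-05) and Clec2d 1.09 (0.67 and -0.42, 0.0809). Smaller positive ones were found for Arhgap32 1.03 (0.80 and -0.22, 0.0138), Lonrf1 1.00 (0.98 and -0.03, 0.00217), Hdac4 0.83 (0.75 and -0.08, 0.00166) and Il33 0.77 (0.81 and 0.04, 0.00395). The remaining positive ones belonged to Kdm6b 0.69 (0.49 and -0.20, 0.0368), Ptprb 0.58 (0.59 and 0.01, 0.0818), Acvr2b 0.55 (0.40 and -0.14, 0.0105) and Rora 0.52 (0.55 and 0.03, 0.0509). Last came Dgat2 0.33 (0.38 and 0.06, 0.0751). The largest negative differences were those of Cdkn1a -2.16 (-2.46 and -0.30, 9.48e-05), Slc41a3 -1.38 (-1.61 and -0.24, 0.000755), Tnfrsf12a -0.94 (-1.32 and -0.37, 0.0394) and Tubb2b -0.85 (-0.56 and 0.29, 0.0297). Further negative ones were found for Pfkp -0.83 (-0.82 and 0.00, 0.0237), Pdlim3 -0.82 (-0.83 and -0.01, 0.00281), Grk5 -0.68 (-0.73 and -0.05, 0.0327) and Nppa -0.52 (-0.86 and -0.33, 0.0924). The remaining negative ones belonged to Nsf -0.44 (-0.42 and 0.02, 0.098), Ppp1r3c -0.41 (-0.42 and -0.01, 0.0327) and Ahsa1 -0.41 (-0.37 and 0.04, 0.0707). All 24 genes were chosen for their difference of CX C57.YA from each other group, which uses all 4 means of the interaction, so these values are a description and no independent test.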

How the results depend on the processing

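With the intensities the counts were 3589, 650, 482 and 354 probes for the average, each group, outside the range and both conditions. The deposited log2 values gave the same counts, which was fixed in advance because their lines were paired with the probes by value. Median scaling gave 2267, 302, 194 and 129 for these counts. An adjusted p under 0.05 gave 361 against each group. The atrial gene covariate gave 1687 against the average, 0 against each group and 0 for both conditions, with 210 at an unadjusted p under 0.05 against each group, where 1089 were without it. Leaving out sham C57.YA replicates 1 and 2 together gave 264 against each group and 187 for both conditions, and leaving out replicates 3 and 4 gave 1358 and 973, with 1305 outside the range. The cause was not tested.

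Leaving out 1 array at a time gave 2647 (without CX C57.YA replicate 4) to 3890 (without sham C57.YA replicate 4) against the average, 439 (without sham C57.YA replicate 2) to 895 (without sham C57.YA replicate 4) against each group, 491 to 682 outside the range, 296 to 503 for both conditions and 2183 to 3214 among the other 3 groups. The neqc correction, other detection filters, the adaptive false discovery rate, ordinary variances, array weights and a fit of 2 groups left the counts within 1.5 times. The deposited log2 values, paired by value, could not differ from the intensities in what follows. Named genes were refitted with neqc, the deposited log2 values, median scaling, no detection filter, the replicate block and arrays left out singly or in pairs. Of 1265 such values, 1260 kept their direction and their call against the average and 5 lost the call: Slc2a4 at 0.21, Dgat2 at 0.21 and Pdk2 at -0.22 with median scaling, and Pdk2 at -0.19 and -0.18 without CX C57.YA replicate 3 or 4. The 55 genes were named for a call against each group, and all 650 probes so called were also called against the average. The 1260 are thus a description and no independent test. The call against each group was kept in all 16 left-out fits by 29 genes. With the replicate number as a block 3811, 765, 363 and 3257 probes were called against the average, against each group, by both conditions and among the other 3 groups, and Adam20 (adjusted p = 0.108) and Cdkn1a (0.101) lost the call against each group. The numbers did not pair the samples, since deviations of same-numbered arrays correlated at -0.09 to 0.20 and 7 of 16 arrays correlated best with their own number. The BeadChip as a block was not run because the chip of each array is not given in the sources used here.

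Probes near background limit what can be seen: 7 of the higher probes that met both conditions were undetected in at least 1 other group and 2 of the lower were undetected in CX C57.YA, so their fitted differences are no bounds.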

Other observations

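A smaller set of probes met both conditions under each of 20 alternatives, chosen after the values were seen: median scaling, neqc, both pairs of sham C57.YA arrays left out and each array left out in turn. This set had 49 probes, 20 higher and 29 lower in CX C57.YA. Among the genes not described above, Cdh13 (T-cadherin, a receptor for adiponectin) was higher on both of its probes, at 0.55 and 0.54. Ifitm1, an interferon-induced membrane protein, was not detected on any sham C57.YA array. With that group set at the lowest detected signal it was 1.32-fold higher than the average (adjusted p = 5.67e-05 for the fitted difference). Gab3, an adaptor of the family that binds SHP2, was higher at 0.33. Of its 3 probes 2 met both conditions, and the brightest was not called (0.04). Xrn2, a nuclear exoribonuclease not detected on any CX C57BL/6J array, was 1.28-fold higher with that group set likewise (adjusted p = 0.000708 for the fitted difference). The folds of Ifitm1 and Xrn2 are no strict bounds, since undetected arrays of other groups kept their measured signals. Prpf19, a splicing factor, was higher at 0.40 by the 1 of its 3 probes that met both conditions, with another at 0.13.

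Among the lower probes of this set, Slc4a3, the cardiac chloride and bicarbonate exchanger AE3, was at -0.53 and Ank1, or ankyrin 1, at -0.48. Pnpla2, the triglyceride lipase ATGL, was lower at -0.33, and Mfn1, which fuses mitochondria, at -0.30. Rbpms, an RNA-binding protein of muscle, was lower at -0.52 by the 1 of its 3 probes that met both conditions, with another at -0.11. Uck2, a uridine kinase, was lower at -0.50.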
